A study of Homo sapiens with 30 samples.

Results

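O6-benzylguanine (O6-bzG) was given to cells carrying a lesion-bearing p53 vector, and the question asked here is which genes it changed at 24 h. Of the 30 RNA-seq libraries, 6 were compared, chosen by vector, time and drug from their labels: the 3 libraries of p53 TM (the O6-meG vector with 10 µM O6-bzG) against the 3 libraries of p53 O6-meG (the same vector without the drug), joined by replicate number. All genes were considered, and 20124 of the 39359 genes in the count table had enough reads to be tested.

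The cells were H1299, a human lung carcinoma line that makes no p53 of its own. Every group was transiently transfected, and GFP-positive cells were sorted before RNA was made. In each p53 vector p53 and GFP had separate inducible TRE-tight promoters, and the vectors had no known mammalian origin of replication. The p53 thus came from a transgene. The paper describes its protein level as similar to that of p53 activated by DNA damage. The O6-meG vector carries O6-methylguanine on the template strand of the p53 sequence. The drug was added in DMSO before transfection, and whether the other cultures received DMSO is not given in the sources used here, so drug and solvent cannot be told apart. Another 9 libraries of 24 h gave reference levels: pGFP (GFP alone), p53 WT (wild type p53) and p53 RW (the RW mutant p53), 3 of each and none with O6-bzG.

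O6-methylguanine is repaired by O6-alkylguanine-DNA alkyltransferase (AGT), the product of MGMT, which takes the alkyl group onto itself and is used up. O6-bzG is a substrate that spends AGT in the same way, so that the lesion stays in the template. RNA polymerase can pass O6-methylguanine and may place uridine where cytidine belongs, which is called transcriptional mutagenesis (TM); a transcript so altered here encodes a p53 that binds DNA poorly. Wild type p53 is a transcription factor that switches on genes for cell cycle arrest, apoptosis, repair and its own removal, and many cell cycle genes fall when p21, the product of CDKN1A, holds the cyclin-dependent kinases.

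The 6 libraries held between 32541866 and 51604990 counts on genes, with 28757 to 30106 genes detected. Reads of the mitochondrial genome made up 0.310% to 0.698% of the p53 O6-meG libraries and 0.394% to 1.19% of the p53 TM libraries. The line's markers KRT8, KRT18 and VIM were abundant, summing to 3306 to 3933 CPM (counts per 1e6 counts) in p53 O6-meG and 2900 to 3672 CPM in p53 TM. All 3 were called lower in p53 TM, by 0.16 to 0.28 on the log2 scale, and none was called without the replicate block described next. Markers of leukocytes, endothelium and fibroblasts summed to at most 2.07 CPM in any of the 6 libraries, and none was at 0 in a whole group.

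Libraries were compared with edgeR's quasi-likelihood test, fitted on the 15 libraries of 24 h with the replicate number as a block. A gene was called at a Benjamini-Hochberg adjusted p below 0.05 over all genes tested, and a differentially expressed gene (DEG) was called and changed at least 2-fold. Levels are CPM scaled for library composition (TMM), listed for replicates 1, 2 and 3 in that order, and a fold change is p53 TM against p53 O6-meG.

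**Figure D1:**
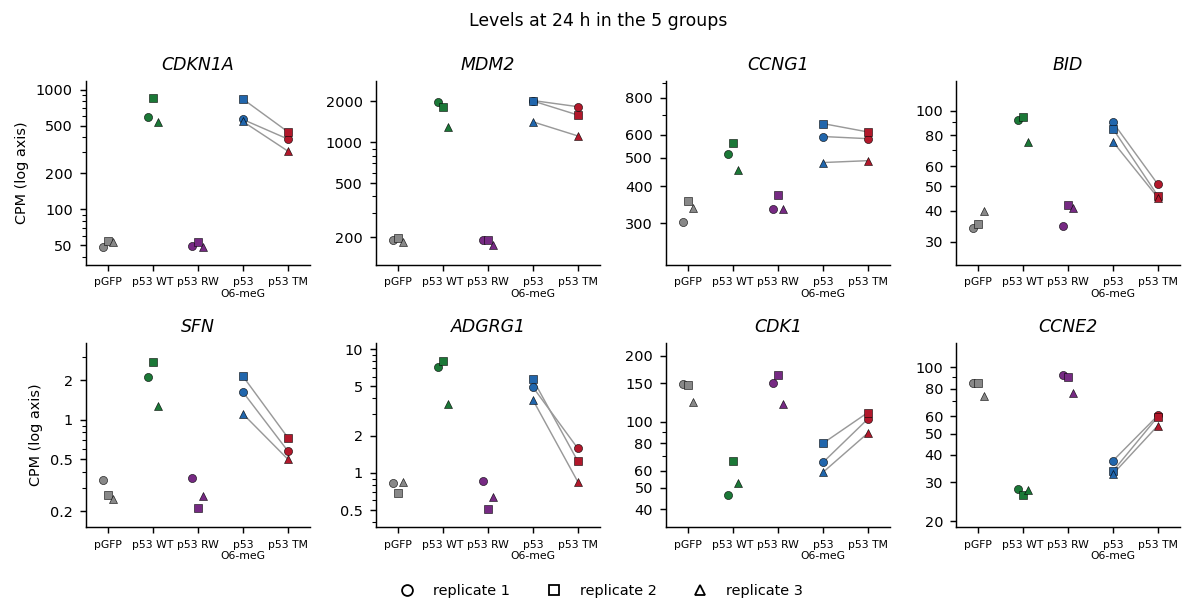
CPM (log axis) of 8 genes in each of the 3 libraries of the 5 groups at 24 h, with the replicate number as the symbol and a grey line joining p53 O6-meG to p53 TM of the same number. CCNG1 overlaps between the 2 groups, CDKN1A, SFN, BID and ADGRG1 drop in all 3 pairs, and CDK1 and CCNE2 move up from near p53 WT toward pGFP.

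Between p53 TM and p53 O6-meG, 3360 genes were called lower (16.7% of those tested) and 2042 were called higher (10.1%), 5402 in either direction (26.8%). The larger changes were mostly downward: 508 DEGs were lower (2.52%) and 94 were higher (0.467%). With at least 10 counts asked of every library, 179 DEGs were lower and 21 were higher. The median log2 fold change over all genes tested was -0.01; TMM scaling itself sets the centre near 0. The counts depend on the block. Without it, 729 genes were lower (3.62%) and 286 were higher (1.42%), and leaving out replicate 2 in all groups left 1007 lower and 364 higher. Same-numbered libraries of p53 TM and p53 O6-meG deviated together in all 3 pairs, with correlations over genes of 0.420 to 0.657. Pairs of these groups with different numbers ran from -0.507 to 0.187. Deviations were taken from each group's mean, which by itself pushes these values down where same-numbered ones are positive.

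The larger falls were chiefly in genes that wild type p53 raised. In the same fit, p53 WT against pGFP gave 1915 DEGs higher (9.52%) and 498 DEGs lower (2.47%), from libraries that are not in the O6-bzG comparison, although they share its replicate numbers and its estimate of the spread. Of the 1915 p53 WT-induced genes, 1301 were called lower in p53 TM (67.9%) and 0 were called higher. Their median log2 fold change was -0.65, with pair medians of -0.52, -0.71 and -0.61. Of the 498 p53 WT-repressed genes, 187 were called higher (37.6%) and 0 were called lower, with a median of 0.55. At an unadjusted p below 0.05, 1 induced gene was higher and 0 repressed genes were lower, and DESeq2 with the block called 1137 and 147 genes in these directions and 0 in the opposite ones. Without the block 493 of the induced genes were lower and 62 of the repressed genes were higher, and without replicate 2 the counts were 626 and 65. Looked at from the other side, 472 of the 508 DEGs that were lower were p53 WT-induced (92.9%), and 54 of the 94 DEGs that were higher were p53 WT-repressed (57.4%). Genes could pass the count filter through groups with p53 alone, and 886 of the 1915 induced genes had a mean of at least 1 CPM in pGFP. The overlap with the DEGs is therefore a description only. Of all genes called, whatever the size of the change, 1301 of the 3360 that were lower were p53 WT-induced (38.7%). Likewise 187 of the 2042 that were higher were p53 WT-repressed (9.16%). Both classes still ask for a 2-fold response to p53 WT. By sign alone, with a p53 WT response of any size, 5251 of the 5402 genes called (97.2%) moved against it. The share over all genes tested was not taken, so this is a description only.

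The log2 fall was larger where induction was stronger, and on that scale a gene raised more also has more to lose. The p53 WT-induced genes were divided into 4 equal groups by their rise over pGFP. From the weakest to the strongest group, the median log2 fold change in p53 TM was -0.43, -0.54, -0.78 and -1.29. The share called lower was 58.5%, 60.3%, 69.9% and 83.1%. The median part of the rise that p53 TM kept (defined below) differed less, at 44.6%, 46.6%, 41.4% and 34.2%. Across all 20124 genes the log2 fold changes of the 2 comparisons had a Pearson r of -0.743 and a Spearman rho of -0.714; genes are not independent replicates, and both axes come from one set of libraries handled together. Among the 886 induced genes with at least 1 CPM in pGFP, where low counts weigh less, r was -0.572 and rho was -0.568. Among the 498 p53 WT-repressed genes alone, r was -0.293 and rho was -0.208.

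**Figure D2:**
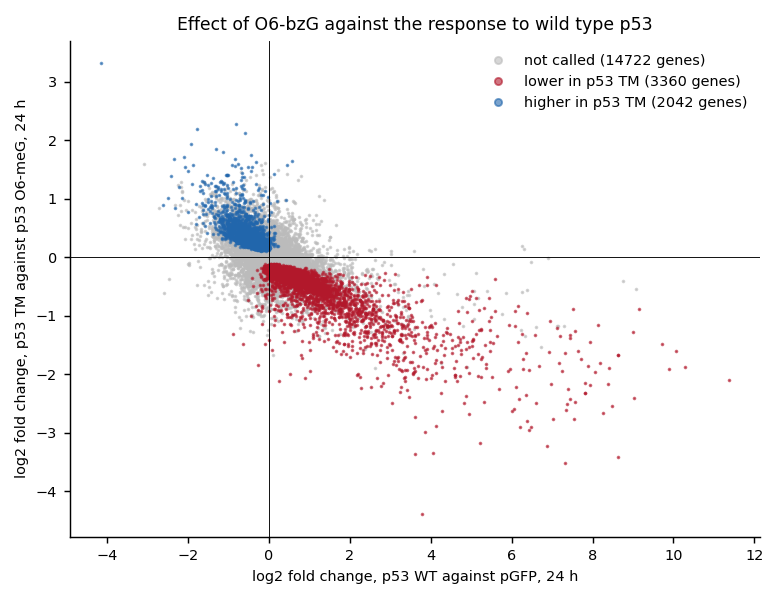
Each point is 1 of the 20124 genes, with the log2 fold change of p53 WT against pGFP on the x axis and that of p53 TM against p53 O6-meG on the y axis. The 3360 genes called lower with O6-bzG lie mostly to the right, where p53 WT raised a gene, and the 2042 called higher lie mostly to the left.

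The fall was partial for most genes. The part of the rise over pGFP that p53 TM kept, taken as the p53 TM rise divided by the p53 O6-meG rise in group means of CPM, had a median of 41.2% over the 1915 p53 WT-induced genes, with quartiles of 27.3% and 57.0%. Pair 1 kept more than the other 2, with pair medians of 52.9%, 33.2% and 34.1%. Among these genes 429 kept under 25% and 184 kept over 75%. The high-confidence p53 target genes (HCGs) that the study lists as induced at 24 h had a median of 55.6% over 188 genes, with 14 under 25% and 38 over 75%. Of the 190 HCGs tested, 153 were called lower (80.5%, against 16.7% of all genes tested). Of these HCGs 0 were called higher, against 10.1% of all genes tested, and their median log2 fold change was -0.53. None was higher at an unadjusted p below 0.05 or in DESeq2, which called 146 lower with the block. By edgeR 52 were lower without the block, where 3.62% of all genes tested were lower, and 65 without replicate 2. This list was chosen on the p53 WT and pGFP libraries of the same series. The study's further split of HCGs also used p53 TM libraries and is given as a description only: 28 of 52 early, 69 of 69 continuous and 52 of 53 late HCGs were called lower. Without the block these were 0 of 52, 35 of 69 and 16 of 53, against 3.62% of all genes tested.

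Sequence near the start site was read for the genes on which this pattern turns. A p53 response element is a pair of adjacent 10-base half-sites, each with a C and a G on either side of its central pair of bases. RefSeq promoter windows on GRCh38.p14, from 250 bases before to 50 bases after the start site, were searched on both strands for a full element with no spacer, at most 2 mismatches and the C and G of both half-sites (CNNG) in place. The bases between that C and G could mismatch. Of 35116 promoters available, 100 held one (0.285%), against 26 of the 12639 promoters of genes tested (0.206%) and 10 of the 1133 matched p53 WT-induced promoters (0.883%). Among induced genes, 7 of 876 called lower and 3 of 257 not called held one, too few to set the classes apart. The 5 elements shown are examples that lie before the start site, and of their genes only LNCTAM34A was not called. The element is in capitals with 10 bases on each side, given on the strand of the gene.

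ANKRD65 (chr1:1421472-1421511, minus strand): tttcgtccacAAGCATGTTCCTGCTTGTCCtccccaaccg
AATBC (chr21:43812722-43812761, minus strand): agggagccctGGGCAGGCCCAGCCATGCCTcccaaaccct
UBASH3B (chr11:122655651-122655690, plus strand): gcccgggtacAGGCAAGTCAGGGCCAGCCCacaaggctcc
AEN (chr15:88621296-88621335, plus strand): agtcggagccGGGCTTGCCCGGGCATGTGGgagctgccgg
LNCTAM34A (chr1:9182134-9182173, plus strand): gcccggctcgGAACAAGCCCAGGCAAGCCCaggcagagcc

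ANKRD65 changed by -1.52 on the log2 scale (adjusted p = 0.00072), AATBC by -1.15 (adjusted p = 0.0037), UBASH3B by -0.44 (adjusted p = 0.0017) and AEN, an apoptosis-enhancing nuclease, by -0.30 (adjusted p = 0.038; adjusted p = 0.17 without the block). The call of AEN was lost under 11 of 21 alternatives. LNCTAM34A, a non-coding RNA at the MIR34A locus whose element has 0 mismatches, had a log2 fold change of 0.19 (adjusted p = 0.39) and was not called. Its exons overlap those of MIR34AHG on the other strand, and as the sources used here do not say whether reads were counted by strand, reads of the 2 cannot be told apart. PTCHD4 and MORC4 also hold an element before the start site, not shown. PTCHD4, with 0 mismatches, was not called (log2 fold change -0.39, adjusted p = 0.12), and MORC4 was called lower (-0.50, adjusted p = 8.3e-05). A window holding the element thus occurred on both sides of the call.

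Genes of the p53 feedback loop changed by small amounts. Of 8 tested, 3 were lower (37.5%) and 0 were higher, against 16.7% lower and 10.1% higher over all genes tested. The median log2 fold change was -0.12. Without the block 0 were called by edgeR (2 at an unadjusted p below 0.05) and 1 by DESeq2. MDM2, the ubiquitin ligase that removes p53, was at 2031, 2015 and 1415 CPM in p53 O6-meG and at 1829, 1588 and 1115 CPM in p53 TM. It fell in each pair, but the groups overlapped, and the log2 fold change was -0.28 (SE 0.09, adjusted p = 0.035; adjusted p = 0.44 without the block). Leaving out single libraries or a replicate number took its adjusted p as high as 0.27. TRIAP1, an inhibitor of apoptosome formation, changed by -0.34 (adjusted p = 0.0055) and COP1, another p53 ubiquitin ligase, by -0.26 (adjusted p = 0.011). CCNG1, encoding cyclin G1, stood at 591, 654 and 482 CPM against 581, 613 and 489 CPM and was not called (adjusted p = 0.75). PHLDA3, an AKT repressor, had 10.9, 11.2 and 5.99 CPM against 12.4, 9.03 and 6.38 CPM, with a log2 fold change of -0.02 (SE 0.14). It was below 0.1 CPM in every pGFP library, and so was strongly induced by the vector.

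Of 11 genes of cell cycle arrest, 5 were lower (45.5%) and 2 were higher (18.2%), with a median of -0.33. Over all genes tested these shares were 16.7% and 10.1%. Without the block 4 of the 11 were lower and 1 was higher. CDKN1A (hg38, chr6:36676460-36687337, plus strand), which encodes the kinase inhibitor p21, was at 563, 834 and 542 CPM in p53 O6-meG and at 386, 444 and 306 CPM in p53 TM. The groups did not overlap, the log2 fold change was -0.76 (SE 0.10, adjusted p = 3.8e-05), and p53 TM kept 55.0% of the rise over pGFP. SFN, which encodes 14-3-3 sigma and holds cells in G2, had 1.63, 2.14 and 1.11 CPM against 0.578, 0.730 and 0.50 CPM, a log2 fold change of -1.41 (SE 0.21, adjusted p = 0.00015). PLK2, a stress-induced kinase, had 355, 298 and 308 CPM against 181, 133 and 130 CPM and changed by -1.12 (SE 0.11, adjusted p = 4.1e-06). These 3 genes were separated between groups in every library. BTG2, an antiproliferative cofactor, changed by -0.58 and PLK3 by -0.33, whereas ZMAT3, an RNA-binding p53 target, kept 104% of its rise and was not called. The 2 members that rose, CEBPA (0.62) and TOB1 (0.26), are growth-restraining regulators that p53 WT did not raise in these cells.

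Apoptosis genes fell in 10 of 16 cases (62.5%, against 16.7% of all genes tested) and rose in 0, with a median of -0.46. Without the block BID and BBC3 were the 2 called. BID, which carries the signal from death receptors to mitochondria, had 89.8, 84.7 and 75.2 CPM against 50.9, 45.7 and 45.0 CPM. The 2 groups were far apart and p53 TM kept 22.9% of the rise (log2 fold change -0.82, SE 0.09, adjusted p = 1.3e-05). BBC3, which encodes the BH3-only protein PUMA, had 17.7, 21.5 and 15.4 CPM against 11.8, 11.4 and 8.67 CPM and changed by -0.78 (adjusted p = 0.00044). APAF1, the scaffold of the apoptosome, changed by -0.76 (adjusted p = 0.00014; adjusted p = 0.082 without the block). Of the death receptors, TNFRSF10A changed by -0.44 (adjusted p = 0.013; adjusted p = 0.097 without the block), a call lost under 8 of 21 alternatives. FAS had 72.5, 63.3 and 50.5 CPM against 67.7, 53.4 and 40.4 CPM and was not called (log2 fold change -0.22, adjusted p = 0.19), and the difference between the 2 receptors was not tested. FAS shares exon sequence on the other strand with ACTA2. BAX, the pore-forming effector, changed by -0.21 with an adjusted p of 0.059.

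DNA repair targets moved little. PCNA, the replication clamp (-0.32, adjusted p = 0.0038), and POLH, a translesion polymerase (-0.28, adjusted p = 0.0038), were the 2 of 9 called. That share of 22.2% was near the 16.7% of all genes tested that were called lower. Without the block edgeR called 0 (1 at an unadjusted p below 0.05) and DESeq2 1. DDB2 and XPC, which recognise lesions for nucleotide excision repair, were at 105, 106 and 83.6 CPM against 102, 98.4 and 86.7 CPM and at 105, 89.1 and 82.0 CPM against 103, 90.3 and 85.5 CPM. Neither was called, with log2 fold changes of -0.03 (SE 0.07) and 0.02 (SE 0.05), although p53 WT raised them by 2.01 and 1.05. The 6 p53 WT-induced genes of this list kept a median of 94.5% of their rise.

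In metabolism and autophagy, 9 of 14 genes were lower (64.3%, against 16.7% of all genes tested) and 0 were higher, with a median of -0.30. Without the block PANK1 and AIFM2 were the 2 called. GLS2, mitochondrial glutaminase, had 96.1, 78.2 and 49.0 CPM against 61.8, 35.3 and 23.4 CPM. It fell in each pair, but the spread between replicates made the groups overlap (log2 fold change -0.93, SE 0.11, adjusted p = 1.9e-05; adjusted p = 0.11 without the block). PANK1, which starts coenzyme A synthesis, changed by -0.76 (SE 0.08, adjusted p = 6.3e-06), and DRAM1, a lysosomal protein of autophagy, by -0.45 (adjusted p = 0.0027). Of 4 p53-linked non-coding RNAs tested, 0 were called by edgeR or DESeq2, and 1 was lower at an unadjusted p below 0.05. MIR34AHG, the host transcript of MIR34A, had 37.8, 19.9 and 20.2 CPM against 38.7, 24.0 and 22.0 CPM.

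**Figure D3:**
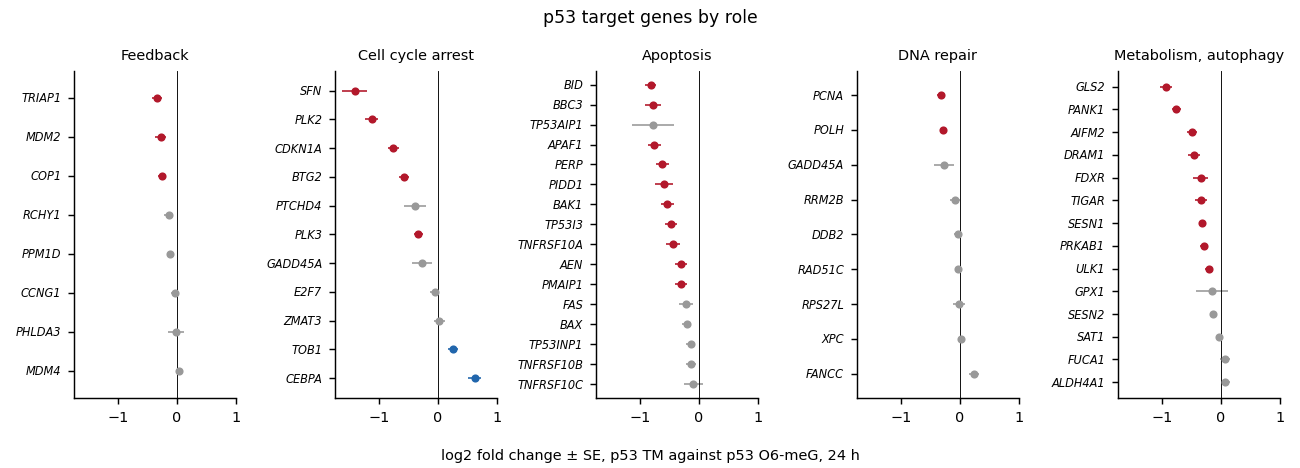
Log2 fold change ± SE of p53 TM against p53 O6-meG for the p53 target lists by role, red where a gene was called lower, blue where called higher and grey where not called. The feedback and repair lists sit near 0, with medians of -0.12 and -0.03, and SFN at -1.41 and PLK2 at -1.12 are the farthest to the left.

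The largest falls were in genes almost silent without p53. Among called genes with at least 1 CPM on average that moved one way in all 3 pairs, the 10 largest falls were ANGPT4, PADI3, CIBAR2, CLEC17A, CLCA2, NKX1-2, EPPK1, PRSS56, COL15A1 and RASAL1, with log2 fold changes from -2.62 to -2.16. PADI3 (chr1:17249098-17284233, plus strand), a peptidylarginine deiminase of hair follicle and epidermis, had 1.97, 3.06 and 2.09 CPM against 0.315, 0.609 and 0.269 CPM. That was 63, 134 and 70 reads against 12, 25 and 14, the groups lay well apart, and the fold change was 6.00-fold lower (log2 -2.59, SE 0.19, adjusted p = 5.8e-07). EPPK1, encoding the cytoskeletal linker epiplakin, was the most abundant of the 10, with 55.0, 59.8 and 31.4 CPM against 21.3, 7.11 and 4.04 CPM. Replicate 1 of p53 TM stood highest for these genes except PADI3. COL15A1, a basement membrane collagen, had 9.06, 8.0 and 4.97 CPM against 2.86, 1.46 and 0.807 CPM, and p53 TM kept 23.1% of its rise.

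Genes the study names beside its RNA-seq results were lower in 11 and higher in 15 of 29 cases. The shares of all genes tested were 16.7% lower and 10.1% higher. The list of named genes was chosen on these libraries, so its direction is not independent evidence. ADGRG1, an adhesion G protein-coupled receptor, had 4.94, 5.70 and 3.89 CPM against 1.58, 1.24 and 0.846 CPM, near the 0.681 to 0.843 CPM of pGFP. It changed by -2.01 (SE 0.20, adjusted p = 4.3e-06) and kept 10.7% of its rise. CAV1, the scaffold of caveolae, went from 375, 456 and 405 CPM to 235, 235 and 243 CPM and kept 12.9%. BMP7, a bone morphogenetic protein, changed by -1.26 and PRDM1, a transcriptional repressor of lymphoid differentiation, by -1.05. Without the block 6 of the 29 were lower, among them ADGRG1 and CAV1, and 10 were higher. In that fit 3.62% of all genes tested were lower and 1.42% were higher, and PRDM1 was not called (adjusted p = 0.11).

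The largest rises were smaller than the largest falls and were in genes that p53 WT lowered. By the same rule the 10 were TENT5C, SDC2, NPTX2, VWA5B2, ARMH4, AGTR1, RAB9B, SESN3, CELF5 and B4GALNT3, from 1.33 down to 1.04 on the log2 scale. SESN3, a sestrin that restrains mTORC1, had 10.3, 10.1 and 8.14 CPM against 21.4, 21.1 and 18.5 CPM, and pGFP had 24.0, 20.7 and 16.4 CPM. The groups did not overlap (log2 fold change 1.10, SE 0.10, adjusted p = 1.8e-06), and p53 TM lay within the range of pGFP. AGTR1, the type 1 angiotensin II receptor, had 1.28, 1.19 and 0.808 CPM against 2.73, 2.41 and 2.04 CPM, an increase of 1.13. TENT5C and SDC2 were not called without the block (adjusted p = 0.063 and 0.11). VWA5B2 and ARMH4 share exon sequence with the more abundant ALG3 and PSMA3-AS1, so their own reads are uncertain. GFI1, a transcriptional repressor, rose by 0.92 and SERPINB9, an inhibitor of granzyme B, by 0.79 (adjusted p = 0.062 without the block).

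Among cell cycle genes, more of the mitotic list than of the G1/S list was called higher, against 10.1% of all genes called higher and 16.7% called lower. Of 35 G2/M genes, 16 were higher and 2 were lower, with a median of 0.20, and of 33 G1/S genes, 4 were higher and 3 were lower, with a median of 0.04, so the G1/S counts were near the background. Without the block the counts were 3 higher and 0 lower for G2/M and 1 higher and 0 lower for G1/S. The difference between the lists was not tested. CDK1, FBXO5 and ERCC6L on the G2/M list and CCNE2 and E2F8 on the G1/S list are also genes the study names. As these were chosen on these libraries and all were called higher, their calls are not independent evidence. CDK1 (chr10:60778331-60794852, plus strand), the kinase that drives entry into mitosis, had 65.3, 79.9 and 58.9 CPM against 103, 110 and 89.0 CPM. The groups did not overlap, and p53 TM lay between p53 O6-meG and pGFP at 150, 147 and 123 CPM (log2 fold change 0.57, SE 0.08, adjusted p = 7e-05). CENPE, a kinetochore motor, changed by 0.47 (adjusted p = 0.00091) and CDC25C, the phosphatase that activates CDK1, by 0.48 (adjusted p = 0.0034). Without replicate 2 their adjusted p rose to 0.052 and 0.078, and CDC25C shares exon sequence on the other strand with the more abundant FAM53C. FBXO5, an inhibitor of the anaphase-promoting complex, was the third G2/M gene called without the block beside CDK1 and CENPE. CCNB1 and PLK1, equally central to mitosis, were not called, with log2 fold changes of -0.01 and 0.01 (SE 0.07 each). CDC20 (-0.31, adjusted p = 0.00014) and KIF20A (-0.20, adjusted p = 0.0068) were the 2 that fell.

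CCNE2, cyclin E2 of the G1/S transition, had 37.6, 33.8 and 32.7 CPM against 60.5, 59.7 and 54.4 CPM and changed by 0.75 (SE 0.06, adjusted p = 5.8e-07). Every p53 TM library was above every p53 O6-meG library, and pGFP was higher still, at 84.8, 84.6 and 73.7 CPM; CCNE2 shares exon sequence on the other strand with INTS8. E2F1, an activator of S phase genes, changed by 0.21 (adjusted p = 0.020; adjusted p = 0.24 without the block). CCND1, cyclin D1, went the other way, from 172, 204 and 239 CPM to 122, 145 and 158 CPM. All 3 p53 TM values were below those of p53 O6-meG, and the fall was 0.53 on the log2 scale (adjusted p = 7.9e-06; adjusted p = 0.11 without the block). MCM4 and MCM5, subunits of the replicative helicase, changed by -0.19 each.

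Mitotic genes are often held in check through the cell cycle homology region (CHR), TTTGAA, in their promoters. The same windows held TTTGAA or its complement TTCAAA in 19 of 29 matched G2/M promoters (65.5%), in 9 of the 15 matched promoters of G2/M genes called higher (60.0%) and in 1 of 26 G1/S promoters (3.85%), against 9.87% of promoters of genes tested and 15.2% of all promoters. As the letters are few, a match is a description only. The stretches of CDK1, KIF18A, KIF11 and CDCA8 are shown as examples, chosen after their values were seen from the called-higher G2/M genes that hold the motif before the start site, with the motif in capitals.

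CDK1 (chr10:60778160-60778185, plus strand): gtataataaaTTTGAActgtgccaat
KIF18A (chr11:28108151-28108176, minus strand): gtggcttgggTTTGAAtattgtggtt
KIF11 (chr10:92593092-92593117, plus strand): ctgtctctttTTCAAAttgaggcgcc
CDCA8 (chr1:37692483-37692508, plus strand): gactgtggagTTTGAAttgggtggcg

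KIF18A and KIF11, motors of the mitotic spindle, changed by 0.42 and 0.30, and CDCA8, a subunit of the chromosomal passenger complex, by 0.28.

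**Figure D4:**
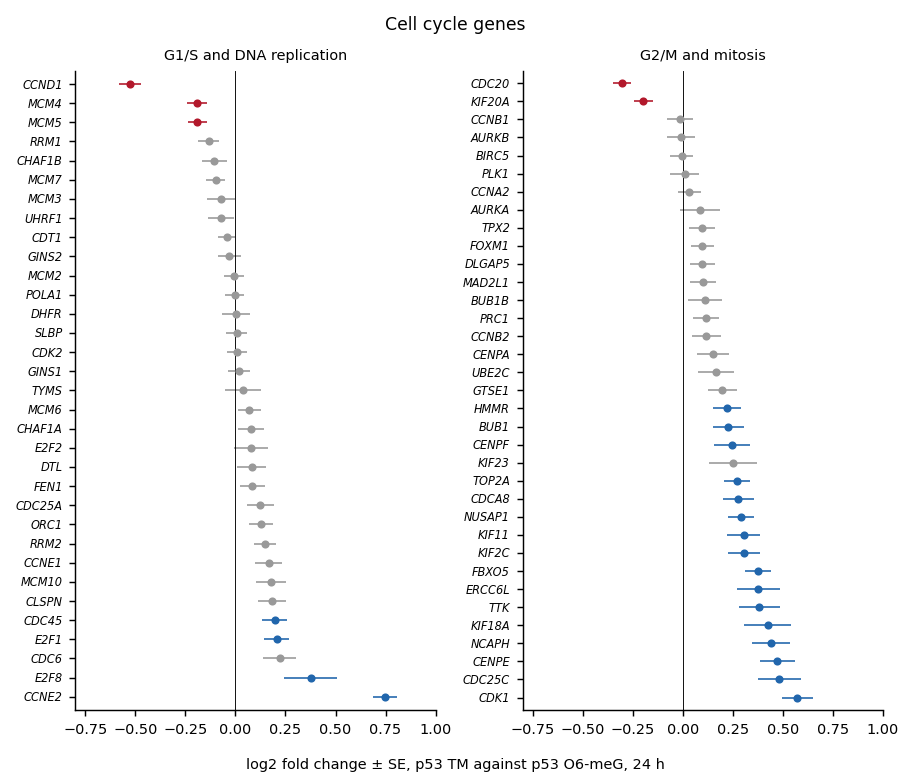
Log2 fold change ± SE of p53 TM against p53 O6-meG for 33 G1/S and 35 G2/M genes, red where called lower, blue where called higher and grey where not called. CCNE2 at 0.75 and CDK1 at 0.57 are the farthest to the right, and CCND1 at -0.53 is the farthest to the left.

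Some genes changed that showed no response to p53 WT. No response to p53 WT was set as a log2 fold change within 0.5 of pGFP and an unadjusted p above 0.05, which held for 8031 genes. Of these, 561 were called (6.99%, against 26.8% of all genes tested), 358 lower and 203 higher. Most changes were small, with a median of -0.23 among the genes called lower. For 284 of the 358 genes (79.3%), p53 TM lay farther than p53 O6-meG from the mean of pGFP, p53 WT and p53 RW, against 103 of the 203 called higher (50.7%). These genes were chosen on the same difference that the distances use, and the share over all 8031 genes was not taken. The 2 shares are therefore a description only. These counts rest on the block: without it 14 of the genes were called, and without replicate 2 there were 58. All p53 TM libraries had the drug and the other groups did not, so O6-bzG itself and the altered p53 cannot be told apart here.

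The 10 such genes with the smallest p were all lower: TMEM156, THBS1, UAP1, MYC, PAQR4, PLAT, SNHG3, MRPS12, TFRC and STEAP1. THBS1, thrombospondin 1 of the extracellular matrix, had 49.6, 64.0 and 85.9 CPM against 40.1, 43.4 and 52.2 CPM, and 57.3, 64.0 and 78.3 CPM in pGFP. Each p53 TM library was the lowest of its replicate number, although the ranges overlapped (log2 fold change -0.54, SE 0.07, adjusted p = 4.9e-05; adjusted p = 0.13 without the block). TMEM156, a transmembrane protein, changed by -0.81, and TFRC, the transferrin receptor that takes up iron, by -0.27. TFRC had 891, 493 and 467 CPM against 773, 405 and 371 CPM. MYC, the growth-promoting transcription factor, had 26.8, 61.0 and 84.4 CPM against 18.5, 45.4 and 50.7 CPM. Its replicates differed more than its groups, and its adjusted p of 8.9e-05 became 0.57 without the block. PAQR4 and SNHG3 share exon sequence with PKMYT1 and RCC1, both more abundant. None of the 10 was called without the block.

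**Figure D5:**
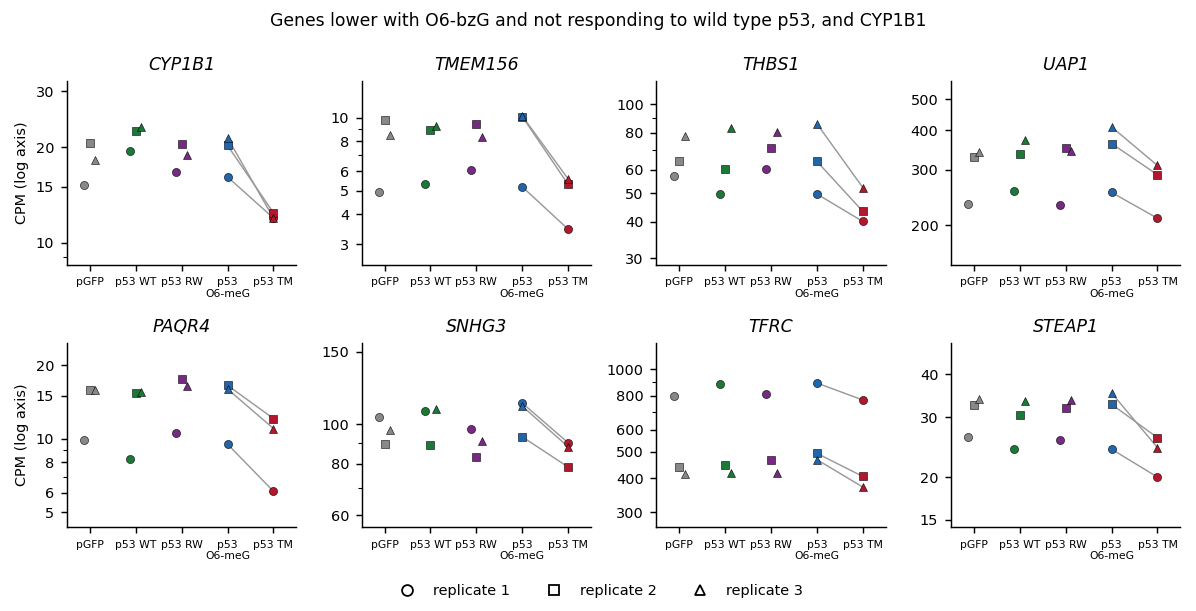
CPM (log axis) of CYP1B1 and of 7 genes that did not respond to p53 WT, in the 3 libraries of each of the 5 groups at 24 h, with grey lines joining p53 O6-meG and p53 TM of the same replicate number. For CYP1B1 all 3 p53 TM libraries (12.0 to 12.4 CPM) are below all 12 other libraries. The other genes fall within pairs, which the rule that chose them required.

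Genes tied to the drug and its target were looked at by fixed lists. MGMT (chr10:129467190-129770983, plus strand), the gene for AGT, had 18.1, 21.8 and 15.7 CPM against 15.4, 16.2 and 15.3 CPM. The groups overlapped, and the fall of 0.24 on the log2 scale (SE 0.09, adjusted p = 0.046) was lost under 13 of 21 alternatives, with an adjusted p of 0.28 without the block. MGMT RNA gives no measure of AGT protein, which is what O6-bzG acts on. Of the 13 genes for O6-meG repair and tolerance, 5 were lower, against 16.7% of all genes, and 0 were higher. ALKBH3, an alkyl-lesion dioxygenase that p53 WT raised by 0.73, changed by -0.38 (adjusted p = 0.0030) and was the 1 called without the block. The mismatch repair gene PMS2 changed by -0.29 (adjusted p = 0.11 without the block), and MSH6 was not called.

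CYP1B1, a cytochrome P450 and target of the aryl hydrocarbon receptor, had 16.1, 20.2 and 21.4 CPM in p53 O6-meG and 12.0, 12.4 and 12.0 CPM in p53 TM. It was at 15.3, 20.6 and 18.2 CPM in pGFP and at 16.7, 20.5 and 18.9 CPM in p53 RW, so the p53 TM level was the lowest of the 5 groups. The log2 fold change was -0.66 (SE 0.08, adjusted p = 2.2e-05; adjusted p = 0.012 without the block), and against p53 RW it was -0.62 (SE 0.08, adjusted p = 1.3e-05). Of its list of 8, 2 were lower (25%, against 16.7% of all genes) and 0 were higher. AHRR was the other gene called lower, by 0.31 on the log2 scale (adjusted p = 0.043, and 0.29 without the block). NRF2 targets had 3 of 11 lower, where 16.7% of all genes were lower, and 0 higher. HMOX1, haem oxygenase, at -0.48, was the 1 called without the block, where TXNRD1 and OSGIN1 had adjusted p-values of 0.53 and 0.81, and NQO1 was not called in either fit. Interferon genes had 4 of 13 lower (30.8%). ATF4 and unfolded protein response genes had 3 lower and 3 higher of 15 (20% each), and immediate early genes 4 lower (40%) and 1 higher (10%) of 10. Over all genes tested 16.7% were lower and 10.1% were higher, so the ATF4 share lower and the immediate early share higher were near the background. Without the block edgeR called 0 in each of these 3 lists, with 3 interferon, 6 ATF4 and 1 immediate early gene at an unadjusted p below 0.05, and DESeq2 called 1 immediate early gene. Of 8 housekeeping genes 0 were called by edgeR or DESeq2, with 3 at an unadjusted p below 0.05 with the block. VWF, an endothelial marker that p53 WT raised by 1.67, was lower at 8, 7 and 8 reads against 16, 22 and 16, while PECAM1 was not called; the endothelial markers summed to 0.314 to 0.941 CPM in p53 TM and 0.732 to 1.35 CPM in p53 O6-meG, and their part in the result was not tested.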

How the data were processed

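RNA of the GFP-sorted cells was sequenced as stranded, rRNA-depleted single-read libraries. Per the labels and the paper's methods, the authors aligned reads to hg38 with STAR 2.5.3a and made raw read counts per gene with featureCounts (Subread 1.5.2; GENCODE v27 annotation); the counts were deposited without normalization, and a table normalized by the authors was not used. Counts of the 15 libraries of 24 h were tested here with edgeR 4.0.16 in R 4.3.3 (filterByExpr, TMM, glmQLFTest, groups plus replicate number, Benjamini-Hochberg). The block follows the pairing by replicate number. Over the 5 groups 30 of 30 same-numbered pairs had a correlation above 0.1, against 11 of 60 pairs with different numbers. The lowest same-numbered value was 0.1996 and the highest with different numbers was 0.258, so the ranges overlapped. As deviations from a group's mean sum to 0, positive same-numbered values lower the others, and the contrast is partly arithmetic. Replicates of a group differed beyond counting noise (chi-square per degree of freedom 9.89 to 47.4), so none was a repeat deposit. The 6 h libraries stayed out of the main test because the titles of 2 of them conflict. Coordinates are from GENCODE v44, which held 38904 of the 39359 gene identifiers. The test was checked on simulated counts with known changes. It recovered 12 of 50 changes of 0.3 on the log2 scale, 29 of 50 of 0.6, 37 of 50 of 1 and 45 of 50 of 2, with 14 false calls. Small changes were thus often missed. The counts were simulated from the fit with the block, so this check cannot judge the block. The genes named are those of the fixed lists, the study's named genes, and the 10 largest changes or smallest p under the rules given in the text; SCO2, TP53COR1 and CD3E were not matched. The members and lists were chosen with earlier results of these data known. DESeq2 1.42.0 was among the 21 alternatives run. Some items are not reported here.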

Additional observations from a re-analysis of the deposited data

How the results depend on the processing

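Every named gene that was called kept its direction under each of the 21 alternatives that tested it, but the counts of calls rested on the replicate block and on replicate 2. Counts are given in the order genes lower and higher, DEGs lower and higher, HCGs lower, p53 WT-induced genes lower, p53 WT-repressed genes higher, genes with no response to p53 WT, and members of the fixed lists lower and higher. The reported counts were 3360, 2042, 508, 94, 153, 1301, 187, 561, 60 and 36. Without the replicate block they were 729, 286, 255, 29, 52, 493, 62, 14, 14 and 12. With only the 6 libraries compared and no replicate block they were 205, 36, 73, 5, 17, 148, 14, 0, 5 and 2, and with the block 962 genes without response and 59 list members higher were called. For the 0, from edgeR, 93 genes were lower and 122 higher at an unadjusted p below 0.05.

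With all 30 libraries as labelled and the replicate block within each time, 2234 genes were lower, and 63 HCGs, 843 induced genes, 325 genes without response and 27 list members lower were called. With those libraries and no replicate block the counts were 831, 525, 243, 45, 32, 471, 86, 31, 13 and 15. DESeq2 without the block gave 1192, 638, 276, 34, 76, 667, 84, 51, 24 and 17, and with the block 62 DEGs were higher. At least 10 counts in every library left 179 DEGs lower and 21 higher, and the cause was not tested.

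Leaving out 1 library or 1 replicate number gave 1007 to 3145 genes lower, 364 to 1923 higher, 271 to 634 DEGs lower, 36 to 127 DEGs higher, 65 to 167 HCGs, 626 to 1287 induced genes, 65 to 178 repressed genes, 58 to 522 genes without response, and 23 to 64 list members lower and 9 to 38 higher. The lowest of these were without replicate 2. Leaving out replicate 1 in all 5 groups, the same loss of samples, gave 3145 genes lower and 1923 higher, and the cause was not tested. Of 128 named genes called, 44 kept the call without the block, 123 with DESeq2 and the block, 61 without replicate 2, and 97 to 122 without any other library or number. Depth limits the low genes: SFN rests on 22 to 94 reads a library.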
